A study of Zea mays with 4 samples.

Results

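The NIP and SIP aquaporins of maize (Zea mays) were followed on 4 Affymetrix Maize Genome arrays, where each transcript is read by a probe set, a handful of short oligonucleotides summarised to 1 value. A probe set was taken where its single annotated gene has a symbol or synonym made of NIP or SIP, a number, a hyphen and a number. sip1 (LOC542299), also named Zlp, was left out by the rule. This gave 10 probe sets for 8 genes, of 1108 named genes and of 17555 probe sets that are not controls: 7 probe sets for 5 NIP genes and 3 probe sets for 3 SIP genes. Replicates 1 and 2 of the maize line F98902, labelled as of bad digestibility, and replicates 1 and 2 of the line Cm484, labelled as of good digestibility, had an array each. Per the labels, plants of both lines were untreated, were raised under glass (day 22 °C, night 20 °C, 14 h light) and were taken at flowering, 24 h before ovulation. The labels give the tissue as stem in one protocol and as root in another, so it is not settled here. Nothing in the labels says that replicates are different plants; the p-values therefore rest on a spread that may be technical. With 1 line of each kind, digestibility and any other difference between the lines cannot be told apart.

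Aquaporins are membrane channels that let water and small uncharged solutes pass. The NIPs (nodulin 26-like intrinsic proteins, named after a protein of the soybean nodule) include channels for silicic acid and boric acid, and in grasses some of them feed silicon and boron into the root and unload them in the shoot. The SIPs (small basic intrinsic proteins) are a small group that, in Arabidopsis, sits in the membrane of the endoplasmic reticulum. The other large groups in plants are the PIPs of the plasma membrane and the TIPs of the tonoplast, the membrane of the vacuole.

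Of the 7 NIP and SIP genes with signal, 4 stood higher in Cm484, and none was called higher in F98902. By probe set this was 5 of 8, where 34.9% of all probe sets tested were called, 17.1% higher in Cm484. They were the silicic acid channel gene NIP2-1, its close relative NIP2-2, the boric acid channel gene NIP3-1, and SIP1-2. The differences ran from 2.59-fold for NIP2-2 to 6.92-fold for NIP3-1, while SIP1-2 lay near the detection value in F98902 and has no exact fold. NIP2-3, SIP1-1 and SIP2-1 had signal in both lines and were not called, and NIP1-1 was below detection on all 4 arrays. Values are the deposited log2 values, on which 1 unit is a doubling, and a probe set counted as detected on an array at 5 or more. Whether the probes match the sequence of both lines equally well was not checked. "Called" means an adjusted p under 0.05 from limma, fitted over all 10130 probe sets that reached 5 on at least 2 arrays.

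**Figure D1:**
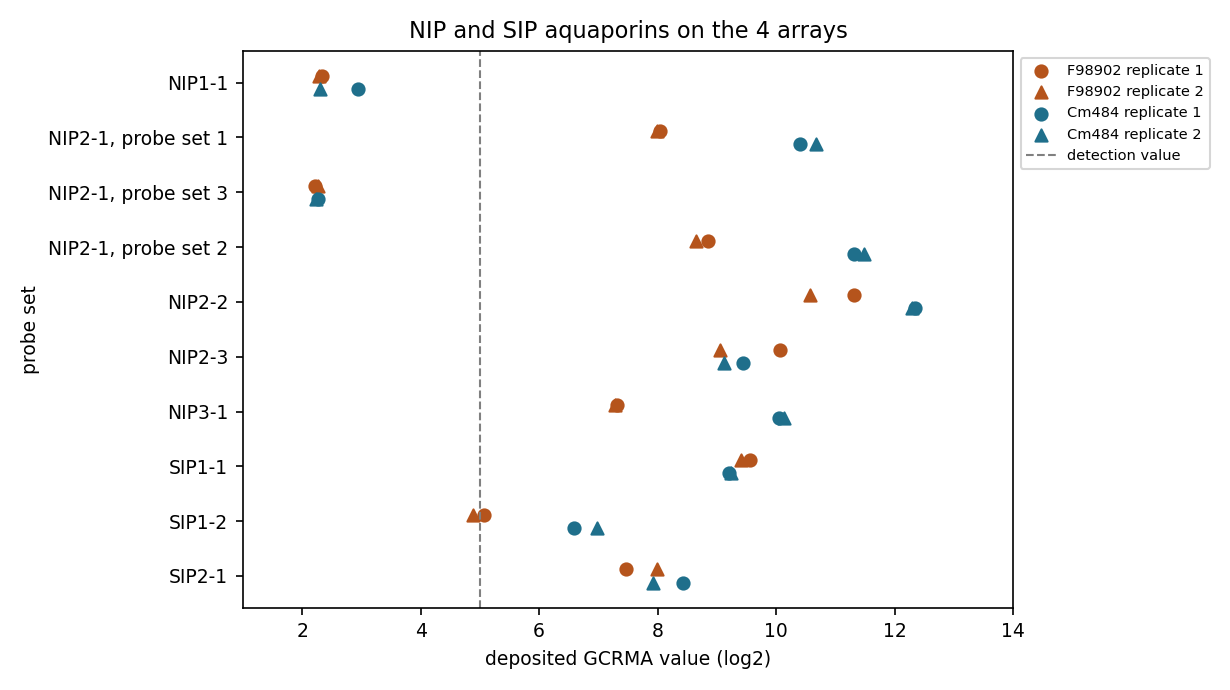
Deposited GCRMA value (log2, x axis) of each of the 10 NIP and SIP probe sets (y axis) on the 4 arrays, circles for replicate 1 and triangles for replicate 2, with the detection value of 5 as a dashed line. Both arrays of Cm484 lie to the right of both F98902 arrays for NIP3-1, NIP2-2, SIP1-2 and the 2 detected NIP2-1 probe sets, and NIP1-1 and the third NIP2-1 probe set lie left of the dashed line on every array.

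Of the 10 probe sets, 8 passed the filter on low values and 2 did not. On F98902 replicate 1 and on both Cm484 arrays 8 members were detected, and on F98902 replicate 2 there were 7, the missing one being SIP1-2. Among the 8 probe sets tested, 5 (4 genes) were called, all 5 higher in Cm484, which is 62.5%. Of all 10130 probe sets tested, 17.7% were called higher in F98902. All 5 member calls also exceeded 1 log2 unit, or 2-fold, on the deposited values. Of all probe sets tested, 22.7% did so with a call in either direction and 10.7% higher in Cm484. For SIP1-2 this rests on an F98902 mean under the detection value. The ranges of the lines did not overlap for 6 of the 8 members, which is close to the 72.0% found among all probe sets tested. The median difference, F98902 minus Cm484, was -1.59 (log2) over the 8 members and -0.02 over all probe sets tested. The members' median size of difference, whatever its direction, was 1.59 against 0.44.

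NIP3-1 (LOC541885) belongs to the boric acid channels, and loss of the maize gene is known from the tassel-less1 mutant, which is short of boron in its growing tips. Its probe set read 7.31 and 7.29 on F98902 replicates 1 and 2, and 10.05 and 10.14 on Cm484 replicates 1 and 2. Replicates lay 0.02 apart in F98902 and 0.09 apart in Cm484, whereas the nearest arrays of different lines lay 2.73 apart. The difference was -2.79 ± 0.15 (log2, SE; adjusted p = 0.000224), or 6.92-fold with a 95% confidence interval of 5.30 to 9.04. It was larger in size than that of 93.6% of all probe sets tested. With any 1 array left out the difference stayed between -2.84 and -2.75.

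NIP2-1 (LOC542643) also carries the name Lsi1, which in rice stands for the channel that takes silicic acid into the root. Its first probe set read 8.03 and 7.98 on the F98902 arrays and 10.39 and 10.68 on the Cm484 arrays, replicate 1 first in each line. A second read 8.84 and 8.65 in F98902 and 11.31 and 11.49 in Cm484. On both, each Cm484 array lay more than 2 log2 units above each F98902 array. The differences were -2.53 ± 0.17 (SE, adjusted p = 0.000463) and -2.65 ± 0.17 (SE, adjusted p = 0.000372). As folds these are 5.77, with a 95% confidence interval of 4.25 to 7.82, and 6.29, with an interval of 4.66 to 8.47, so each estimate lies inside the other's interval. These probe sets read 1 gene on the same arrays and are not independent of each other. The third stayed between 2.22 and 2.27 on all 4 arrays, below detection, and gives no information on the lines.

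NIP2-2 (LOC541884), of the same NIP2 group, read 11.31 and 10.57 on F98902 replicates 1 and 2 and 12.34 and 12.29 on the Cm484 arrays. The lines did not overlap, with 0.97 between the nearest arrays, but the F98902 replicates lay 0.74 apart. The difference was -1.37 ± 0.27 (SE, adjusted p = 0.0161), or 2.59-fold with a 95% confidence interval of 1.60 to 4.18. This call was not held throughout. It was lost without Cm484 replicate 1 (adjusted p = 0.0752), without Cm484 replicate 2 (adjusted p = 0.0621) and when no filter on low values was used (adjusted p = 0.0669).

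NIP2-3 (LOC542497) is also named Lsi6, which in rice stands for the channel that moves silicic acid out of the xylem in the shoot. It was detected on all 4 arrays, at 10.07 and 9.05 in F98902 and 9.44 and 9.11 in Cm484. The lines overlapped, since F98902 replicate 2 was the lowest array and F98902 replicate 1 the highest. The difference was 0.28 ± 0.36 (SE, adjusted p = 0.6), with a 95% confidence interval of -0.64 to 1.20, so a difference of 2-fold higher in F98902 lies inside the interval. Its sign turned, to -0.23, without F98902 replicate 1.

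NIP1-1 (LOC542741), of the group closest to the soybean nodulin, read 2.33 and 2.29 in F98902 and 2.94 and 2.30 in Cm484. All 4 values lie well under the detection value, and Cm484 replicate 1 alone stood apart from the others. It was not tested with the filter in place, and with no filter the difference was -0.31 ± 0.25 (SE, adjusted p = 0.578).

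Of the SIP genes, SIP1-2 (LOC541892) alone was called. It read 5.06 and 4.89 on F98902 replicates 1 and 2, at the detection value, and 6.58 and 6.98 on the Cm484 arrays. The lines did not overlap, with 1.52 between the nearest arrays. The difference was -1.81 ± 0.20 (SE, 95% confidence interval -2.31 to -1.30, adjusted p = 0.00228). No fold is given because the F98902 mean of 4.97 lies under the detection value.

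SIP1-1 (LOC542494), its closest relative by name, was detected on all arrays, at 9.55 and 9.40 in F98902 and 9.21 and 9.25 in Cm484. Both F98902 arrays stood above both Cm484 arrays, by 0.15 between the nearest. The difference of 0.25 ± 0.16 (SE, 95% confidence interval -0.15 to 0.64) was not called (adjusted p = 0.282). SIP2-1 (LOC542646) read 7.47 and 7.99 in F98902 and 8.42 and 7.92 in Cm484. Its lines overlapped, and the difference of -0.44 ± 0.27 (SE, 95% confidence interval -1.12 to 0.24) was not called (adjusted p = 0.264). The intervals of SIP1-1 and SIP1-2 do not meet. Whether members differ from each other in their line difference was not tested, since probe sets of different genes respond differently to the same change.

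**Figure D2:**
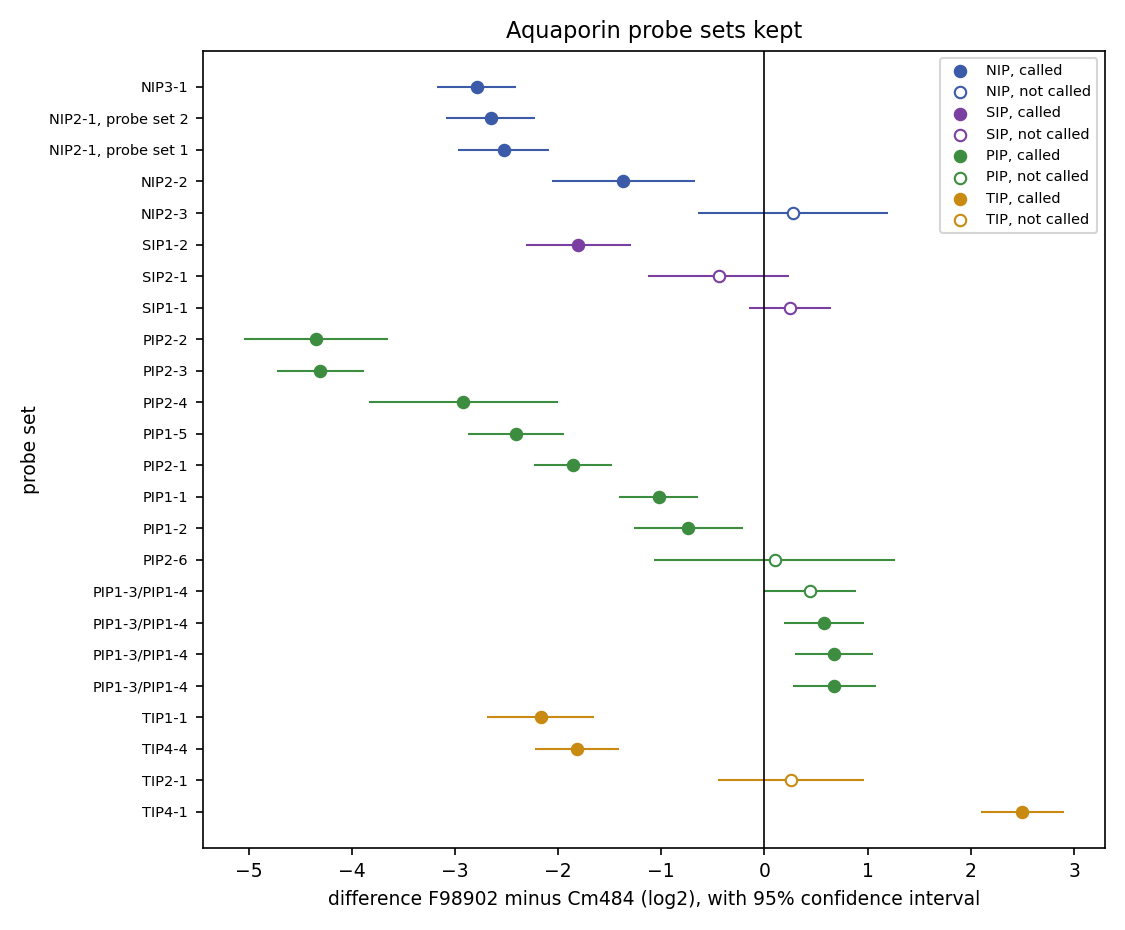
Difference F98902 minus Cm484 (log2, x axis) with its 95% confidence interval for the 24 aquaporin probe sets kept (y axis), coloured by group, filled where called. NIP and SIP calls all lie left of 0, from -2.79 to -1.37. PIP and TIP calls lie on both sides, those of 9 genes to the left and of 2 genes to the right.

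The PIP and TIP groups were called in both directions. Of their 26 probe sets, 16 were kept and 13 of these called: 9 (9 genes) were higher in Cm484 and 4 (2 genes) higher in F98902. By group, NIP gave 4 calls (3 genes) of 5 probe sets kept (4 genes), SIP 1 of 3, PIP 10 (8 genes) of 12 (9 genes) and TIP 3 of 4. Of all probe sets tested, 34.9% were called, and SIP, at 33.3%, lay close to that share. The median difference of the PIP and TIP probe sets kept was -0.88, against -1.59 for NIP and SIP. PIP1-3/PIP1-4 and NIP2-1 enter these medians with more than 1 probe set each. The medians therefore do not rank the groups by gene, and whether the groups differ was not tested. PIP2-3 (LOC541889), a plasma membrane channel gene, had the smallest p (adjusted p = 9.4e-05). Its called probe set, which ends in _s_at (shared sequence), read 4.38 and 4.41 in F98902, both below detection, and 8.59 and 8.82 in Cm484. Another PIP2-3 probe set read 2.39 and 2.55 in F98902 and 2.57 and 2.64 in Cm484, below detection on all 4 arrays. The PIP2-3 difference thus rests on 1 probe set. PIP2-2 (LOC542644) read 2.80 and 3.44 in F98902, also below detection, and 7.66 and 7.27 in Cm484 (adjusted p = 0.000355). In the other direction stood TIP4-1 (LOC541897), a tonoplast channel gene, at 2.50 ± 0.16 (SE, adjusted p = 0.000365). Next came the locus that bears both names PIP1-3 and PIP1-4 (LOC541886), whose first probe set gave 0.67 ± 0.15 (SE, adjusted p = 0.0224). Among the other probe sets of this locus, those at 0.57 and 0.68 were also called. That at 0.44 was not called (adjusted p = 0.111), and another was below detection on all 4 arrays.

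**Figure D3:**
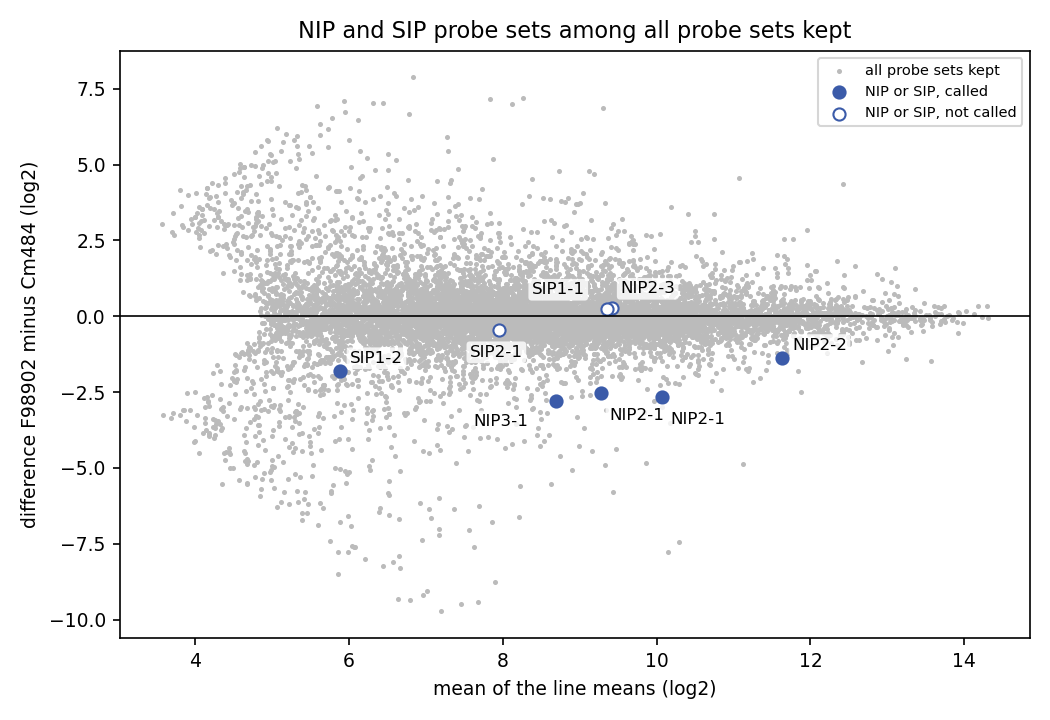
Difference F98902 minus Cm484 (log2, y axis) against the mean of the line means (log2, x axis) for all 10130 probe sets kept (grey) and the 8 NIP and SIP probe sets kept, filled where called. NIP3-1 and the NIP2-1 probe sets lie below most grey points of their level, and NIP2-3 and SIP1-1 lie close to 0.

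For boron and silicon transport, names of the forms rte, tls, BOR and Lsi were looked up. These names matched only 4 probe sets of 2 genes, NIP2-1 and NIP2-3, which are members already. For each called member, the named genes with the most similar profile were taken among 754 named probe sets kept that are no aquaporin, by Euclidean distance over the 4 arrays after each probe set's mean was subtracted. With 4 arrays in 2 lines, this distance mostly reflects the size of the line difference. For NIP3-1 the nearest were SE1A (LOC732796, distance 0.40), the SET-domain gene sdg110 (LOC542662, 0.41) and the nitrilase gene NIT2 (LOC542093, 0.51). For NIP2-1 the nearest to the first probe set were SE1A (0.22), NIT2 (0.26) and the polyamine oxidase gene MPAO (LOC541983, 0.28). Its second probe set had SE1A (0.35), sdg110 (0.38) and AGA2 (LOC606464, 0.41). SE1A itself read 3.41 and 3.57 in F98902 and 5.79 and 6.29 in Cm484, so it was below detection in F98902, as were NIT2 and sdg110.

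NIP2-2 lay nearest to Agpat4 (LOC732844, distance 0.21), Cystatin (LOC542213, 0.26), a gene for an inhibitor of cysteine proteases, and the derlin gene DER2.2 (LOC606472, 0.31). Cystatin also read lower on F98902 replicate 2 than on replicate 1, which the choice by profile favours. It read 12.96 and 12.12 in F98902 and 14.14 and 13.74 in Cm484. SIP1-2 lay nearest to the receptor kinase gene serk3 (LOC542670, 0.20), the ferritin gene fer2 (LOC542392, 0.22) and hir3 (LOC541821, 0.25). All of these neighbours were higher in Cm484, as the choice by profile fixes.

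Tissue markers and array quality differed as well. The single root marker with a probe set, zrp4, read 2.34 and 2.07 in F98902, below detection, and 8.83 and 8.59 in Cm484. Of 14 probe sets (7 genes) for green tissue, 11 were kept, and 8 were called higher in F98902 against 1, lhcb5, in Cm484. Of all probe sets tested, these shares were 17.7% and 17.1%. The 8 repeat genes: they are of C4ppdkZm1 and CP24, each with more than 1 probe set, psad1 and Lhcb5-2. A further C4ppdkZm1 probe set (0.01) and rbcS (0.55, adjusted p = 0.0669) were not called. The summed level of the 14 probe sets, as log2 of the summed linear values, was 14.82 to 14.85 in F98902 and 13.60 to 13.84 in Cm484. Of the vascular pair, sut1 gave -0.02 and ZMK2 0.56, and of 12 pollen and seed probe sets 10 were below detection on all arrays. The other 2 were a gz27 probe set, a zein name, at 0.42 (adjusted p = 0.135, not called), and the MADS-box gene zmm24 (m24, LOC542038). zmm24 read 3.13 and 4.05 in F98902, below detection, and 9.20 and 9.63 in Cm484 (adjusted p = 0.000286). NIP2-1 and NIP3-1 are thus higher in the line with zrp4 and zmm24 signal and with the lower green tissue sum. zrp4 and zmm24 are 1 gene each, and gz27, from the same list as zmm24, leaned towards F98902 without being called. These markers do not settle the tissue makeup, and its part in the NIP2-1 and NIP3-1 differences was not tested. In bulk RNA, fewer cells of a type and less RNA per cell cannot be told apart.

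F98902 replicate 2, with 120.7 ng of RNA against 312.4 to 416.8 ng for the others, stood apart in its spike-in poly-A controls, which lay 1.22 above the mean of the remaining arrays, against -0.65 to -0.17 for the others. The 2 F98902 arrays deviated in opposite directions at the 5′ end of housekeeping transcripts. Over the 5 such controls with signal, the median lay -0.83 from the mean of the other arrays on replicate 2 and 0.86 on replicate 1, whereas at the 3′ end these medians were 0.00 and 0.12. NIP2-2 and NIP2-3 read 0.74 and 1.02 lower on this array than on F98902 replicate 1, NIP3-1 only 0.02 lower, and SIP2-1 read 0.53 higher. Without this array the same count of 5 members was called, with -2.78 for NIP3-1, -2.50 and -2.56 for NIP2-1, -0.998 for NIP2-2 (adjusted p = 0.0318) and -1.72 for SIP1-2. NIP2-3 then stood at 0.79 (adjusted p = 0.0869) and was still not called.

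**Figure D4:**
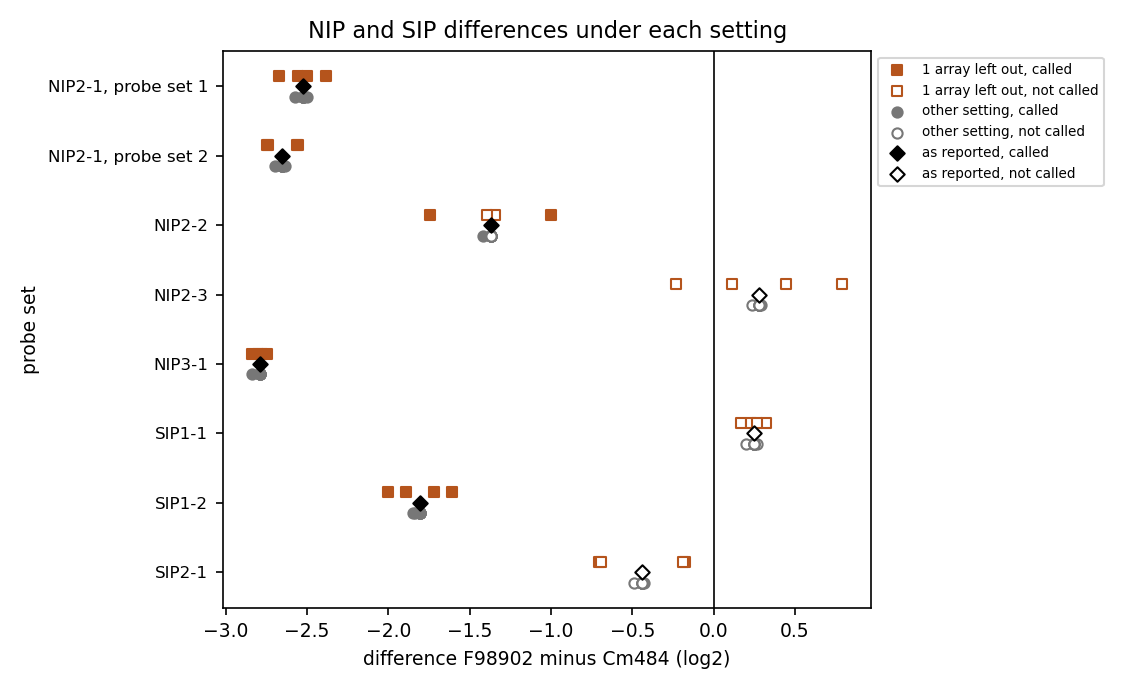
Difference F98902 minus Cm484 (log2, x axis) of each NIP and SIP probe set kept (y axis) as reported (diamond), with 1 array left out (squares) and under the other settings (circles), filled where called. The points of NIP3-1, NIP2-1 and SIP1-2 are filled throughout, those of NIP2-2 are not, and NIP2-3 crosses 0.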

How the data were processed

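The authors' deposited table holds log2 values of 4 arrays. Per the submitters' processing notes these were made with GCRMA in R 2.6.2, which corrects background by probe sequence, normalizes by quantiles and summarises probe sets; no further step is stated in the sources at hand. No value was transformed again. Of 17734 probe sets, 179 controls and reporters were left out, and 1452 of the rest had 1 gene in the platform's older annotation. Symbols and synonyms came from the RefSeq gene table (assembly Zm-B73-REFERENCE-NAM-5.0), which held all 10 members. No sequences or coordinates were used.

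Probe sets at 5 or more (log2) on at least 2 of the 4 arrays were compared between lines by limma (version 3.58.1, R 4.3.3; lmFit, then eBayes) without covariates, as F98902 minus Cm484. The fit had 2 residual degrees of freedom and a prior worth 3.27. Two-sided p-values were adjusted over all 10130 by Benjamini-Hochberg. Every adjusted p is from such a fit. The fit was tested on simulated data. An exact permutation test of 2 arrays against 2 cannot go below p = 0.333, so none was used for single genes. The number of arrays limits the precision.

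Members and lists were chosen with earlier results of these data known. Every member is named; of the PIP and TIP genes, the rule names the 2 with the smallest p in each direction, taking 1 probe set per gene, and for each called member the 3 nearest named genes. Alternatives changed the filter, scaling, variance model, replicate block, shared probe sets and the arrays used.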

Additional observations from a re-analysis of the deposited data

How the results depend on the processing

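The calls of NIP3-1, SIP1-2 and the 2 detected NIP2-1 probe sets held under every alternative that tested them. Leaving out 1 array gave 4 to 5 called NIP and SIP probe sets, 9 to 10 called PIP and TIP probe sets and 2208 to 2709 called overall. The overall count was 2341 without F98902 replicate 2 and 2208 without Cm484 replicate 1. Without probe sets ending in _s_at, _x_at or _a_at, 2 NIP and SIP and 8 PIP and TIP probe sets were called, because the called NIP2-1 and NIP3-1 probe sets, and 5 called PIP probe sets (of PIP1-3/PIP1-4, PIP2-2 and PIP2-3), are themselves among those left out. Leaving out only those ending in _s_at or _x_at, a choice made after seeing the data, gave 5 and 11. The difference of NIP2-3 ranged from -0.23 (reversed, without F98902 replicate 1) to 0.79 with 1 array left out, and the cause was not tested. With the replicate block, 5 NIP and SIP, 9 PIP and TIP and 2985 probe sets overall were called. Same-numbered samples did not deviate together (r = -0.02 across probe sets, which are not independent). With 1 replicate difference per line, this cannot settle whether they share a batch. The number of detected members was 8 at detection values of 4, 5 and 6. NIP1-1 and the F98902 level of SIP1-2 lie at or near background and are poorly measured.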
